A study of Mus musculus with 6 samples.

Results

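Endothelial cells line the blood vessels of the kidney, and 35 genes known from these cells were followed here across kidney tissue of 2 inbred mouse strains. The genes were chosen by symbol. A row with the symbol was found for 34 of the 35 among 23282 rows of each library, and Tie1os, an antisense transcript, was not analysed here because no row carries its name. Of the 34 genes, 31 passed the filter on low values, and Vwf, Sox18 and Podxl2 did not. The study sampled kidney of C57BL/6 mice, labelled B6, and of BALB/c mice, labelled BALBc, with 3 mice and 3 libraries per strain. The labels name no treatment, transgene or deletion for either strain and state neither age nor sex. They do not say how the mice were housed or whether the kidneys were perfused. The series title is about innate lymphoid cells of the kidney, and the libraries described here come from kidney tissue with no sort named. RNA of all kidney cells was read together, so fewer endothelial cells and less RNA per endothelial cell cannot be told apart in any value below.

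The kidney holds several vascular beds in series. The glomerular capillaries are fenestrated and filter plasma, the peritubular capillaries take up what the tubules reabsorb, and the vasa recta serve the medulla. Podocytes and tubule cells secrete vascular endothelial growth factor A (VEGF-A), which acts on receptors of the neighbouring endothelium and maintains its fenestrae. Junction proteins, ETS and SOX transcription factors, the adrenomedullin receptor and endothelial nitric oxide synthase are further parts of the endothelial programme.

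The libraries were made with a kit that primes on poly(A) tails, so a read reports mainly the 3′ end of a transcript and isoforms that share an end are counted together. Values are in CPM, reads scaled per library, and their sums ran from 980188 to 1043600, so the total is not exactly common. The libraries held between 8310798 and 10416332 reads. Since reads come from transcript ends, CPM values were not divided by gene length, and levels of different genes are not compared, except that mean CPM chose which uncalled genes outside the 35 are named. A log2 fold below is the difference of mean log2(CPM + 1), BALB/c minus B6. The added 1 makes folds of weakly expressed genes smaller than they would be on CPM. A gene was called when limma's p, adjusted over all 13317 genes tested, was under 0.05. Kidney markers were abundant, with a summed proximal tubule level between 16780 and 19724 CPM in the 6 libraries. Defining endothelial markers were present in all 6 libraries, with Pecam1 between 35.5 and 55.6 CPM and Cdh5, the VE-cadherin gene, between 9.08 and 16.7 CPM. Vwf, the von Willebrand factor gene of larger vessels, was at or near 0 throughout. Vegfa, Nrp1, Ets1, Icam1 and Tspan7 are also known from other kidney or immune cells, so their values are not those of endothelium alone.

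None of the 31 tested endothelial genes was called in either direction, while 9.09% of all genes tested were called, 4.17% higher and 4.93% lower in BALB/c. Before adjustment, 8 of the 31 had a p under 0.05 (25.8%, against 21.3% of all genes tested). Log2 folds of the 31 genes were on both sides of 0, 16 above and 15 below, with a median of 0.04 beside a median of 0.0023 over all genes tested. The libraries of the strains did not overlap for 8 genes, 4 higher and 4 lower in BALB/c. These made up 25.8% of the 31, and the share over all genes tested was 25.4% (12.5% higher and 12.9% lower), so this count was near the background. The lowest fold was that of Flt1 (-0.45) and the highest that of Gpihbp1 (0.90), which alone had a log2 fold of 0.5 or more in size, where 18.6% of all genes tested did.

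The precision of these folds, together with the adjustment over all genes tested, sets what could have been missed. Each of the 31 genes had at least 17 reads in every library. The SE of the log2 fold ranged from 0.11 for Vegfa to 0.36 for Nos3. The 95% interval lay within -1 to 1, a 2-fold difference either way, for 30 of the 31 genes, and for 74.3% of all genes tested. It lay within -0.5 to 0.5 for 10 of the 31 and for 29.4% of all genes tested. For the 19 genes averaging 20 CPM or more the median half-width of the interval was 0.29, and for the 12 genes below that level it was 0.57. Differences smaller than these widths could not be told from 0 with 3 libraries per strain. The intervals are for single genes and carry no adjustment, so larger differences could be missed by the calls as well. For the 8 genes with an unadjusted p under 0.05 by limma the interval left out 0, and none of them was called. Among these were Gpihbp1, with an interval of 0.30 to 1.49, and Plvap, with -0.61 to -0.12.

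The count of 0 held in part of the other settings, each read against the share of all genes called there. It became 2 with a pseudocount of 5 CPM (9.33% of all genes called) and 2 when only genes averaging 5 CPM or more were tested (10.7%). Total-read scaling gave 1 (8.58%), upper quartile scaling 2 (8.97%) and a robust variance prior 1 (9.32%). It stayed at 0 with a pseudocount of 0.25 CPM (8.63%), no filter beyond 1 read (4.95%), limma-voom on the recovered reads (8.02%), no trend in the prior (3.7%) and the replicate number as a block (7.34%). With B6 replicate 2 left out, Flt1 and Gpihbp1 passed (8.55% of all genes called). Leaving out B6 replicate 1 (6.05%), B6 replicate 3 (7.49%), BALB/c replicate 1 (5.98%), replicate 2 (6.48%) or replicate 3 (7.84%) gave 0 each. Gpihbp1, Plvap, Vegfa and Flt1 were the genes behind these calls, and their values are given with their groups.

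**Figure D1:**
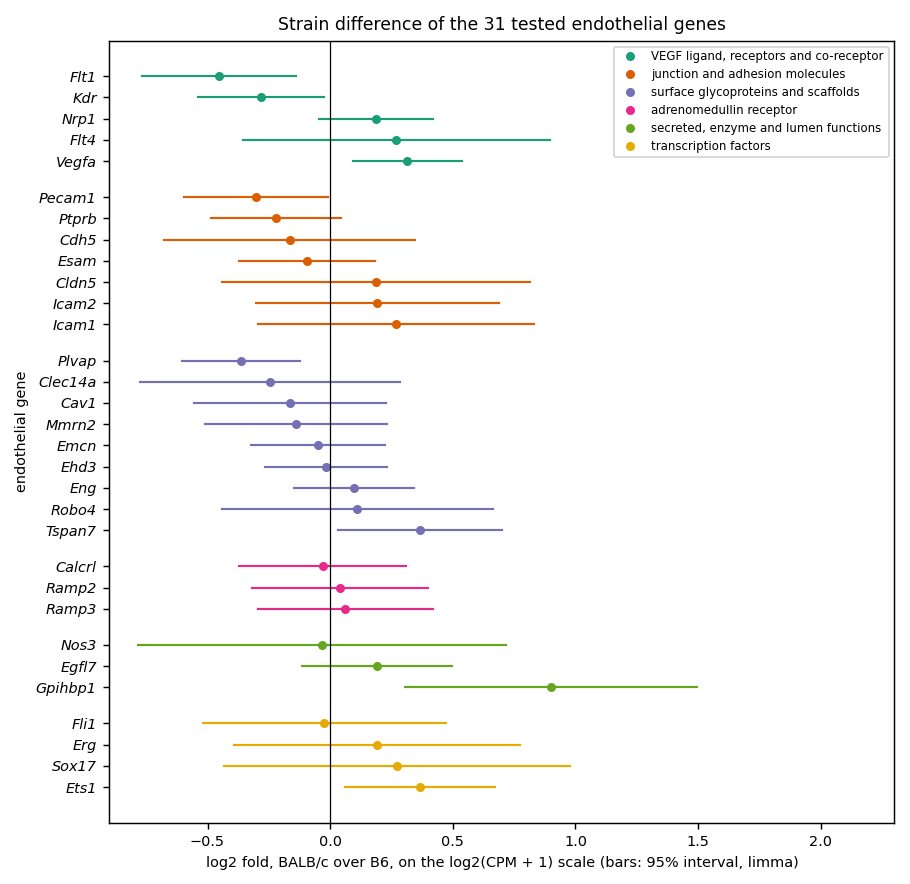
Log2 fold, BALB/c over B6, of the 31 tested endothelial genes on the log2(CPM + 1) scale, grouped by role, with 95% intervals from limma as bars. Points lie on both sides of 0 between -0.45 for Flt1 and 0.90 for Gpihbp1, and the bar of Gpihbp1 is the only one that reaches past 1.

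The promoters of these genes were read for letters known from endothelial regulation, since ERG, FLI1 and ETS1 bind ETS motifs and SOX17 and SOX18 bind SOX motifs. RefSeq promoter sequences on GRCm38.p6 were at hand for 19 of the 35 genes, in 27 windows. The 250 bases before each RefSeq start were searched on both strands. The ETS form CAGGAAG stood in 6 of 27 windows (22.2%, against 10.8% of 32851 windows of the same length over all genes). Its carriers were Calcrl, Egfl7, Emcn, Erg and Robo4. The other ETS form, CCGGAAG, stood in 1 window, that of Ramp3 (3.7%, against 6.91%). The SOX form AACAAT stood in 3 windows (11.1%, against 9.42%) and ACAAAG in 3 (11.1%, against 16.5%). The GC box GGGGCGGGG stood in 6 (22.2%, against 10.4%) and TATAAA in 3 (11.1%, against 12.4%). The ETS forms share the letters GGAAG and the SOX forms ACAA, and several windows can belong to 1 gene. Shown are the promoters of Kdr and Flt1, the VEGF receptor genes with lower values in BALB/c, and of Robo4, Emcn and Calcrl. The last 3 are carriers of CAGGAAG with log2 folds of 0.11, -0.05 and -0.03. The carriers Egfl7 and Erg, both at 0.19, are not shown. All letters are those of GRCm38, a C57BL/6 genome, and BALB/c letters were not read. A relation of letters to folds was not tested. Capitals mark the ETS, SOX and GC box letters, on either strand.
Kdr, chr5:75978456-75978705, minus strand: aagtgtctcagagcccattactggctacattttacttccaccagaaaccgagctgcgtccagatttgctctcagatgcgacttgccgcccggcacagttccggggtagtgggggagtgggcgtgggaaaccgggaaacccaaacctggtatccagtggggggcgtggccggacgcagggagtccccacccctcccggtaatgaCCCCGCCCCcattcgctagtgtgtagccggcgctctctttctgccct
Flt1, chr5:147726012-147726261, minus strand: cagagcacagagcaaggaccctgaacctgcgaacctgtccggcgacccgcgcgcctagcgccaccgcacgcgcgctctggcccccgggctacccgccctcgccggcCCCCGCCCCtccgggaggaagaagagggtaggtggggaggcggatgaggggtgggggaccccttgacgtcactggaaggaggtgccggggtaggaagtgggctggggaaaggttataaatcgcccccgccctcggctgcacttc
Robo4, chr9:37401722-37401971, plus strand: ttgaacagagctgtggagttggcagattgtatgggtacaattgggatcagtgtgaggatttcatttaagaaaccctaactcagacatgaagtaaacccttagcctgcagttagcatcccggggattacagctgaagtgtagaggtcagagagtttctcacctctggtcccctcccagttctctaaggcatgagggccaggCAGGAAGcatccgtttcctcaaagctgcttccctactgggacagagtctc
Emcn, chr3:137340828-137341077, plus strand: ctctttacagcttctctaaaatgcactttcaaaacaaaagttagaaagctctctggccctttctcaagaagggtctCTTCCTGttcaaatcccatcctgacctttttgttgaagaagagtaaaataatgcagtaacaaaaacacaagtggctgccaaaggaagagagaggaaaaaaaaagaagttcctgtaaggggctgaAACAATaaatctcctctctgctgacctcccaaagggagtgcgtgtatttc
Calcrl, chr2:84425267-84425516, minus strand: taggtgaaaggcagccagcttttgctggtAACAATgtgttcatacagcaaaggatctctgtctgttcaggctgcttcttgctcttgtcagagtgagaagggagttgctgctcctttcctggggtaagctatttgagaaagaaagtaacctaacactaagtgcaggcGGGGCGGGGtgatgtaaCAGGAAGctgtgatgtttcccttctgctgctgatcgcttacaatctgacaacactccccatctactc
The windows of Kdr and Flt1 each hold a GC box, read on the strand opposite to the gene, and none of the ETS or SOX forms searched, which says only that these letters are not in these windows. The Emcn and Calcrl windows hold both an ETS and a SOX form. In Robo4 the ETS form ends 43 bases before the RefSeq start. GENCODE places the gene start further upstream, at 37401897 for Robo4 and 84425411 for Calcrl. By those positions the ETS forms of Robo4 and Calcrl lie inside the gene. A match is a description of the letters only.

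Vegfa encodes the main ligand that keeps renal capillaries alive and fenestrated (chromosome 17, 46016993 to 46032369, GRCm38). It was at 99.6, 89.8 and 98.8 CPM in the B6 libraries and 115, 117 and 127 CPM in the BALB/c libraries. Every BALB/c library was above every B6 library, and its difference on the log2 scale, 0.32 ± 0.11 (SE, n = 3 per strain), did not pass the test (adjusted p = 0.0696 by limma). Podocytes are a main source of VEGF-A, and the summed level of 11 podocyte markers also did not overlap, at 577 to 624 CPM in B6 and 773 to 817 CPM in BALB/c. The sums stayed apart whichever 1 of the 11 was left out. The markers did not move as 1 group: Cdkn1c rose, while Nphs1, the nephrin gene, and Ptpro fell. The log2 fold of Nphs1 was -2.98 (adjusted p = 1.11e-06 by limma). The part of podocyte RNA in the Vegfa values was not tested. With upper quartile scaling alone among 16 alternatives Vegfa passed the test (adjusted p = 0.0455 by limma, range 0.0455 to 0.232).

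Flt1 and Kdr encode VEGF receptors 1 and 2, the first of which also has a soluble form that traps ligand. Flt1 was at 45.9, 42.4 and 61.4 CPM in the B6 libraries and 35.1, 35.96 and 36.2 CPM in the BALB/c libraries. The BALB/c values lay within a narrow band below all B6 values, while B6 replicate 3 stood above its strain. Its log2 fold was -0.45 ± 0.15 (SE, adjusted p = 0.0664 by limma). Kdr, the main signalling receptor, was at 75.2, 65.5 and 71.2 CPM in the B6 libraries and 54.2, 62.5 and 57.00 CPM in the BALB/c libraries. Its strains did not overlap either, at log2 fold -0.28 ± 0.12 (adjusted p = 0.179 by limma). Single libraries moved the Flt1 value: without B6 replicate 3 it was -0.30 (adjusted p = 0.316 by limma), and without B6 replicate 2 it was -0.56 and passed the test (adjusted p = 0.0304 by limma).

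Ligand and receptor transcripts can be set against each other within a library, which removes the library's scaling. The Vegfa to Kdr ratio of CPM values was 1.33, 1.37 and 1.39 in the B6 libraries and 2.13, 1.87 and 2.22 in the BALB/c libraries. The Vegfa to Flt1 ratio was 2.17, 2.12 and 1.61 in B6 and 3.29, 3.26 and 3.50 in BALB/c. Both ratios were higher in every BALB/c library than in any B6 library. An exact two-sided permutation test gave p = 0.1 for each, the smallest p that 3 against 3 libraries allow, and 0.15 after adjustment over the 6 ratios computed. The ratios were chosen after the values had been seen. The Flt1 to Kdr ratio was 0.707 ± 0.136 in B6 and 0.619 ± 0.0387 in BALB/c (n = 3, SD; exact permutation p = 0.5, adjusted 0.6), with overlap between the strains.

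Flt4 encodes VEGF receptor 3, known from lymphatic and fenestrated endothelium. It was low, at 4.07, 5.75 and 5.38 CPM in the B6 libraries and 6.49, 7.78 and 4.81 CPM in the BALB/c libraries, and the strains overlapped (log2 fold 0.27 ± 0.30, adjusted p = 0.683 by limma). Nrp1, the neuropilin co-receptor of VEGF-A, was at 326, 249 and 291 CPM in the B6 libraries and 321, 379.6 and 286 CPM in the BALB/c libraries. Its strains overlapped too, with log2 fold 0.19 ± 0.11 (adjusted p = 0.358 by limma), and the fold was 0.08 without BALB/c replicate 2, 0.08 without B6 replicate 2 and 0.28 without BALB/c replicate 3.

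**Figure D2:**
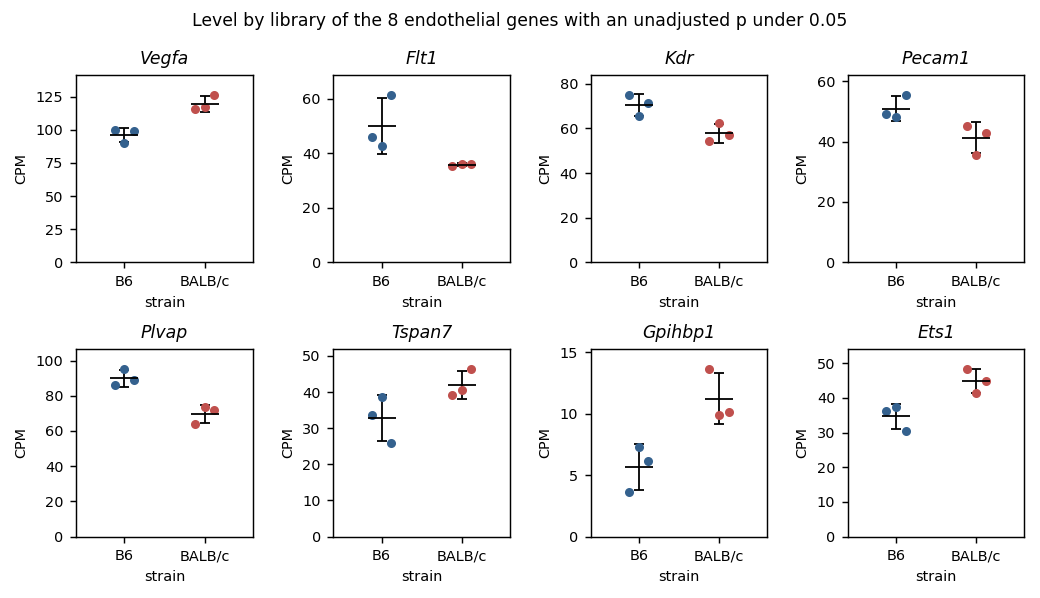
CPM in each library for the 8 endothelial genes with an unadjusted p under 0.05, with points for libraries, horizontal lines for the mean and bars for the SD (n = 3 per strain). Vegfa, Tspan7, Gpihbp1 and Ets1 lie higher and Flt1, Kdr, Pecam1 and Plvap lower in BALB/c, without overlap, and none of the 8 was called after adjustment.

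Of 7 tested genes of endothelial junctions and adhesion, 1 had an unadjusted p under 0.05 by limma (14.3%, against 21.3% of all genes tested). Pecam1, the CD31 adhesion molecule of endothelial contacts and platelets (chromosome 11, 106654217 to 106750628), was at 49.1, 48.3 and 55.6 CPM in the B6 libraries and 45.3, 35.5 and 42.99 CPM in the BALB/c libraries. All BALB/c values were below all B6 values, with log2 fold -0.30 ± 0.14 (SE, adjusted p = 0.215 by limma), and the fold was -0.20 without BALB/c replicate 2, its lowest library. Ptprb encodes VE-PTP, a phosphatase that acts on VE-cadherin and TIE2, and was at 81.8, 72.9 and 84.5 CPM in the B6 libraries and 80.5, 62.3 and 62.8 CPM in the BALB/c libraries. Its strains overlapped through BALB/c replicate 1, and the log2 fold was -0.22 ± 0.13 (adjusted p = 0.338 by limma). Cdh5 averaged 12.8 ± 3.38 CPM (B6) and 11.2 ± 1.97 CPM (BALB/c, n = 3 each, SD), and the 95% interval of its log2 fold was -0.68 to 0.35. Esam, an adhesion molecule of endothelial tight junctions, was at 59.7 ± 7.71 and 55.7 ± 5.06 CPM, with an interval of -0.37 to 0.18. Cldn5, a claudin of tight barriers, had low values of 6.04 ± 1.86 and 6.92 ± 1.48 CPM. The leukocyte adhesion genes Icam1 and Icam2, whose products bind leukocyte integrins, had log2 folds of 0.27 and 0.19 with overlap between the strains. Icam1 averaged 6.65 ± 1.14 CPM (B6) and 8.15 ± 0.302 CPM (BALB/c), and Icam2 13.4 ± 3.54 and 15.2 ± 2.79 CPM (n = 3, SD). Icam1 exons overlap those of Gm47079 on the other strand. Podxl2, a sialomucin gene, had 5 B6 reads and 5 BALB/c reads over 3 libraries each and was not tested.

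Among surface glycoproteins, Plvap had the smallest adjusted p of all 31 genes. Its product forms the diaphragms of endothelial fenestrae and caveolae (chromosome 8, 71497765 to 71511752). Plvap was at 85.9, 95.3 and 88.9 CPM in the B6 libraries and 63.9, 73.6 and 71.8 CPM in the BALB/c libraries. The strains did not overlap, and the log2 fold was -0.36 ± 0.12 (SE, adjusted p = 0.051 by limma), just above the threshold. It passed with a pseudocount of 5 CPM (adjusted p = 0.0478 by limma) and when only genes averaging 5 CPM or more were tested (0.0469), and its adjusted p ranged from 0.0469 to 0.211 over 16 alternatives. The 95% interval was -0.61 to -0.12.

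Emcn, which encodes endomucin, a sialomucin of capillary and venous endothelium, had the smallest within-strain spread of the 31 genes. It was at 48.3, 50.6 and 49.3 CPM in the B6 libraries and 49.2, 49.4 and 44.7 CPM in the BALB/c libraries, with an interval of -0.32 to 0.22. The Plvap to Emcn ratio was 1.82 ± 0.0548 in B6 and 1.46 ± 0.155 in BALB/c (n = 3, SD; exact permutation p = 0.1, adjusted 0.15), without overlap. Ehd3, an endocytic scaffold gene known as a marker of glomerular endothelium, was at 66.3, 70.95 and 79.4 CPM in the B6 libraries and 72.5, 68.6 and 72.3 CPM in the BALB/c libraries. These values overlapped closely (log2 fold -0.02, interval -0.27 to 0.23), a near-zero fold whose sign turned positive under total-read and upper quartile scaling. Eng, the endoglin co-receptor of BMP and TGF-beta ligands, was at 73.9 ± 7.08 and 78.96 ± 1.75 CPM (interval -0.15 to 0.34), and its exons overlap those of Fpgs on the other strand.

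Tspan7, a tetraspanin gene on chromosome X that neurons also express, was at 33.6, 38.7 and 26.00 CPM in the B6 libraries and 39.3, 40.4 and 46.4 CPM in the BALB/c libraries. The strains were separated by less than 1 CPM, with log2 fold 0.36 ± 0.16 (SE, adjusted p = 0.185 by limma), and the fold was 0.21 without B6 replicate 3, its lowest library. Clec14a encodes a C-type lectin receptor of endothelium and Mmrn2 its matrix ligand multimerin 2. Clec14a was at 10.7 ± 0.977 and 8.98 ± 2.24 CPM and Mmrn2 at 25.3 ± 4.04 and 22.7 ± 1.4 CPM (n = 3, SD), with log2 folds of -0.25 and -0.14. Robo4, an endothelial guidance receptor, had a log2 fold of 0.11 and a wide B6 spread, from 7.26 to 15.7 CPM, around a BALB/c mean of 11.3 ± 0.611 CPM (SD, 3 libraries). Cav1, the coat protein of caveolae, averaged 21.6 ± 3.00 and 19.02 ± 0.798 CPM, with log2 fold -0.16 and an interval of -0.56 to 0.23.

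The adrenomedullin receptor is built from the G protein-coupled receptor CALCRL and the accessory protein RAMP2 or RAMP3, and it is essential for vessel development. None of its 3 genes was called. Calcrl was at 29.8, 28.5 and 38.2 CPM in the B6 libraries and 28.4, 34.7 and 30.96 CPM in the BALB/c libraries. Ramp2 was at 22.1, 25.8 and 29.8 CPM in the B6 libraries and 28.7, 25.01 and 25.9 CPM in the BALB/c libraries. Ramp3 was at 24.7, 25.1 and 33.8 CPM in the B6 libraries and 29.1, 31.2 and 26.2 CPM in the BALB/c libraries. The strains overlapped for all 3 genes, with log2 folds of -0.03, 0.04 and 0.06 and 95% intervals that reached no further than -0.37 and 0.42. The Ramp3 to Ramp2 ratio was 1.07 ± 0.0871 in B6 and 1.09 ± 0.136 in BALB/c (n = 3, SD; exact permutation p = 0.8, adjusted 0.8). Exons of Ramp2 overlap those of Vps25, and exons of Ramp3 those of Gm11978. Of the matching peptide genes, Adm, which encodes adrenomedullin, had a log2 fold of 0.26 (adjusted p = 0.491 by limma).

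Gpihbp1 had the largest fold of the members. It encodes the protein that carries lipoprotein lipase across capillary endothelium and holds it at the lumen (chromosome 15, 75596628 to 75599481). The gene was at 3.63, 7.26 and 6.17 CPM in the B6 libraries and 13.6, 9.91 and 10.1 CPM in the BALB/c libraries. Every BALB/c library was above every B6 library, B6 replicate 1 being the lowest. Its log2 fold was 0.90 ± 0.29 (SE, 95% interval 0.30 to 1.49, adjusted p = 0.0521 by limma), which missed the threshold narrowly. It passed in 6 of 16 alternatives, with adjusted p between 0.0334 and 0.233 over all 16. Lpl, the lipase that GPIHBP1 carries, fell from a mean of 873 ± 292 CPM in B6 to 509 ± 47.2 CPM (n = 3 each, SD), with log2 fold -0.72 ± 0.16 (adjusted p = 0.00483 by limma). B6 replicate 2, at 538 CPM, lay within the BALB/c range, and without B6 replicate 1 the Lpl call was lost (adjusted p = 0.0851 by limma). Which kidney cells carried the Lpl transcripts was not tested.

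The other secreted or enzymatic members were not called. Egfl7, a secreted vessel matrix factor and the host gene of Mir126a, was at 44.8, 41.3 and 58.5 CPM in the B6 libraries and 57.3, 47.9 and 59.4 CPM in the BALB/c libraries, with overlap (log2 fold 0.19 ± 0.15, adjusted p = 0.502 by limma). Its exons overlap those of Agpat2 and Gm20532. Nos3, the endothelial nitric oxide synthase, was low at 3.1 ± 1.04 and 3.00 ± 1.06 CPM (n = 3, SD), with a wide interval of -0.78 to 0.72 and exons that overlap those of Atg9b. Vwf had 12 B6 reads and 9 BALB/c reads over 3 libraries each and was not tested.

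Among transcription factors, Ets1 had the smallest p. ETS1 is an ETS factor of endothelium that lymphocytes also express. Ets1 was at 36.2, 37.3 and 30.5 CPM in the B6 libraries and 48.4, 41.5 and 44.8 CPM in the BALB/c libraries. The BALB/c libraries lay above the B6 libraries without overlap, with log2 fold 0.37 ± 0.15 (SE, adjusted p = 0.134 by limma). Its chromosomal neighbour Fli1, another ETS factor of endothelial and blood cells (chromosome 9, 32422204 to 32542861, with Ets1 at 32636221 to 32757820), was at 15.9, 13.2 and 12.2 CPM in the B6 libraries and 10.3, 12.9 and 18.3 CPM in the BALB/c libraries. The strains overlapped for Fli1, with an interval of -0.52 to 0.47, and its near-zero fold of -0.02 turned positive under upper quartile scaling. Erg, the ETS factor most restricted to endothelium, had 9.5 ± 2.49 and 11.3 ± 4.35 CPM with overlap (log2 fold 0.19). Sox17, an arterial factor, had 5.53 ± 2.85 and 6.68 ± 2.34 CPM (log2 fold 0.27), and Sox17 exons overlap those of Gm37587. Sox18, an ally of SOX17 in vessel development, had 8 B6 reads and 2 BALB/c reads over 3 libraries each and was not tested. Summed over the 5 factors, the level was 59.4 to 69.2 CPM in B6 and 74.7 to 79.6 CPM in BALB/c, and Ets1 held the larger part of the sum in every library.

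Some members lie near each other in the genome. Robo4 and Esam lie on chromosome 9, at 37401897 to 37415115 and 37528078 to 37538319, with log2 folds of 0.11 and -0.09. Icam2 and Pecam1 lie on chromosome 11, at 106377656 to 106388075 and 106654217 to 106750628, with 0.19 and -0.30. In all, exons of 9 of the 34 members overlap those of another gene, and for none of the 34 did 50-base words from the last 300 bases of the transcript occur in a transcript of another gene.

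Across libraries the 31 genes kept a similar mean level. The mean log2(CPM + 1) was 4.67, 4.74 and 4.74 in B6 and 4.77, 4.78 and 4.73 in BALB/c. Summed CPM over the 34 genes was 1348, 1289.6 and 1363 in B6 and 1356, 1406 and 1319 in BALB/c. Without Nrp1 and Vegfa, which carried much of that sum and are not endothelial alone, it was 922, 951 and 973 in B6 and 919, 909.7 and 906 in BALB/c. In this smaller sum every BALB/c library lay below every B6 library, by a narrow gap that was not tested. Ets1, Icam1 and Tspan7, also known from other kidney or immune cells, stayed in it, with log2 folds of 0.37, 0.27 and 0.36. The size of the gap therefore holds for this choice of genes only. No library was the highest of its strain for most genes: B6 replicate 2 led its strain in 14 of 31 and BALB/c replicate 2 in 15 of 31. The median within-strain SD of log2 values was 0.19 for the 31 genes, beside 0.23 over all genes tested.

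**Figure D3:**
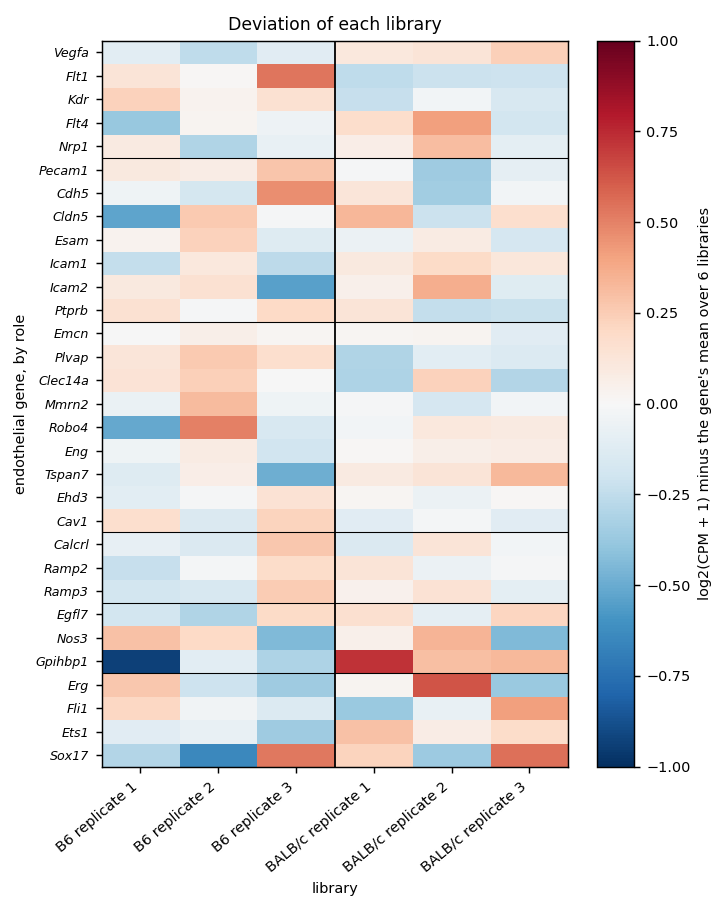
Log2(CPM + 1) in each library minus the gene's mean over the 6 libraries, for the 31 tested endothelial genes in rows by role and the libraries in columns, B6 left of the vertical line. Red is above and blue below the gene's mean; Gpihbp1 shows the widest contrast and Emcn the least, and no library is red or blue throughout.

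The wider endothelial programme was read from 155 further symbols, some of them older names of the same gene, with 145 rows and 124 tested. Of these, 11 rose and 3 fell in BALB/c, 11.3% of those tested beside the 9.09% of all genes, and their median log2 fold was -0.016. Of 29 tested pan-endothelial genes, 1 rose and 1 fell, 6.9% of the list. Adgrl4, an adhesion G protein-coupled receptor of endothelium, was at 62.2, 55.7 and 56.3 CPM in the B6 libraries and 41.8, 33.2 and 35.4 CPM in the BALB/c libraries. It fell without overlap, with log2 fold -0.65 ± 0.14 (SE, adjusted p = 0.00336 by limma). Gimap4, a GTPase gene that lymphocytes also express, rose by 0.65 with overlap through B6 replicate 3 (adjusted p = 0.0154 by limma). The angiopoietin receptor genes Tek and Tie1 had -0.04 and -0.37 (adjusted p = 0.944 and 0.42 by limma), and were chosen after their values were seen. The others named by mean CPM, Adgrf5, Cd34 and Slc9a3r2, had -0.24, 0.12 and 0.12 and were not called.

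None of 17 tested VEGF family and semaphorin partners passed limma's test, beside 9.09% of all genes. Before adjustment 4 were below 0.05 (23.5%, against 21.3% of all genes tested), and the median log2 fold of the list was -0.21. Vegfb, a VEGFR1 ligand, had -0.01. Epas1 and Hif1a, which encode the hypoxia factors HIF-2 alpha and HIF-1 alpha, had -0.02 and -0.22. Of 14 Notch and arterial genes 1 rose, 7.14% of the list beside the 9.09% of all genes. It was the Notch target Hes1, which averaged 63.4 ± 6.01 CPM (B6) and 92.9 ± 17.5 CPM (BALB/c, n = 3 each, SD). Its log2 fold was 0.53 ± 0.13 (SE, adjusted p = 0.0119 by limma). The ligand Jag1, the netrin receptor Unc5b and the arterial ephrin Efnb2 were not called, with log2 folds of -0.13, -0.008 and 0.13.

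Of 12 tested BMP pathway genes, 3 rose and 0 fell, 25.0% of the list beside the 9.09% of all genes. Bmp4, a ligand that kidney stroma and epithelium also make, was at 195, 139 and 197 CPM in the B6 libraries and 319, 357 and 272 CPM in the BALB/c libraries. It rose by 0.84 ± 0.12 (SE, adjusted p = 4.97e-05 by limma), and its exons overlap those of Gm15217 on the other strand. Id1 and Id3, transcriptional inhibitors that BMP signals induce, rose by 1.23 and 0.78 (adjusted p = 1.49e-04 and 0.00455 by limma), BALB/c replicate 3 being the highest library for both. Without that library the Id3 value was 0.49 (adjusted p = 0.0335 by limma). Their relative Id2 had -0.21, the signal transducer Smad5 -0.07 and the BMP receptor gene Bmpr2 -0.13, and none of these was called. Tgfbr2, a TGF-beta receptor gene chosen after its values were seen, did not overlap and lay lower in BALB/c, at -0.63 (adjusted p = 0.0696 by limma). Many kidney cells express Id genes, and which cells carried the difference was not tested.

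Of 13 genes of caveolae and fatty acid uptake, 2 rose and 1 fell, 23.1% of the list beside the 9.09% of all genes. Angptl4, an inhibitor of lipoprotein lipase, was at 4.18, 4.03 and 3.81 CPM in the B6 libraries and 35.03, 26.1 and 12.9 CPM in the BALB/c libraries, a rise of 2.25 ± 0.30 (SE, adjusted p = 1.15e-05 by limma). Fabp4, a fatty acid carrier of capillary endothelium and fat cells, rose by 0.48 (0.0137), and Lpl, given above, fell. The caveolar coat genes Sdpr and Ptrf and the endocytic gene Ehd4 had log2 folds of 0.22, 0.24 and -0.10 and were not called, like Cav1. The Gpihbp1 to Lpl ratio was 0.00361, 0.0135 and 0.00574 in B6 and 0.0287, 0.0176 and 0.0207 in BALB/c, higher in every BALB/c library (exact permutation p = 0.1, adjusted 0.15).

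Of 16 genes of flow response, vessel tone and coagulation, 3 rose and 1 fell, 25% of the list beside the 9.09% of all genes. Klf4, a flow-induced factor that epithelium also expresses, was at 31.3, 35.7 and 41.6 CPM in the B6 libraries and 14.9, 11.3 and 8.62 CPM in the BALB/c libraries. It fell, with log2 fold -1.58 ± 0.21 (SE, adjusted p = 1.14e-05 by limma), whereas its relative Klf2 had -0.04 (adjusted p = 0.923 by limma). Procr, the endothelial protein C receptor, averaged 2.55 ± 1.3 CPM (B6) and 8.98 ± 2.91 CPM (BALB/c, n = 3 each, SD) and rose by 1.53 ± 0.35 (adjusted p = 0.00597 by limma). Of the endothelin genes, Ednrb, the endothelin B receptor, rose by 0.77 (0.0192), and Ece1, the enzyme that makes active endothelin, by 0.41 (0.0264). The angiotensin-converting enzyme gene Ace had 0.03, and Gucy1a3, a subunit of the nitric oxide receptor, 0.33, and neither was called. Of 8 tested leukocyte adhesion and inflammation genes 1 rose (12.5%, against 9.09% of all genes), and it was not an adhesion molecule. It was Nfkbia, the NF-kappa-B inhibitor, which rose by 0.35 (adjusted p = 0.0246 by limma). The junction molecule F11r, Cd47 and Cd99l2 had 0.01, 0.19 and -0.22 and were not called. None of 12 tested capillary, vasa recta and lymphatic genes passed limma's test, beside 9.09% of all genes. Before adjustment 3 were below 0.05 (25%, against 21.3% of all genes tested). Those named by mean CPM had log2 folds of 0.01 (Igfbp7), 0.11 (Aqp1) and 0.32 (Igfbp5). Of 3 tested adrenomedullin and calcitonin genes, Adm, Crcp and Calca, 0 passed limma's test and 0 were below 0.05 before adjustment. Over all genes tested these shares were 9.09% and 21.3%. The 3 genes had log2 folds of 0.26, 0.21 and -0.82.

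Several of these calls ended when a library was left out. Calls over all genes fell as well, from 1211 to between 797 and 1138. Leaving out B6 replicate 1 reduced the 14 calls to 6, while the share of all genes called went from 9.09% to 6.05%, ending those of Gimap4 (0.137), Hes1 (0.0886), Id3 (0.0519), Lpl (0.0851), Fabp4 (0.0645), Procr (0.0526), Ednrb (0.0664) and Nfkbia (0.0734), with limma adjusted p in brackets. Without BALB/c replicate 1, calls ended for Gimap4 (0.139), Fabp4 (0.0839), Ednrb (0.122) and Ece1 (0.0944). Without BALB/c replicate 3 they ended for Hes1 (0.101), Ece1 (0.067) and Nfkbia (0.0959) and without BALB/c replicate 2 for Fabp4 (0.071), Ece1 (0.0696) and Nfkbia (0.0968). Without B6 replicate 3 they ended for Fabp4 (0.0963), Ece1 (0.109) and Nfkbia (0.0597) and without B6 replicate 2 for Gimap4 (0.0662) and Ece1 (0.0719). Adgrl4, Id1, Bmp4, Angptl4 and Klf4 were called whichever library was left out. Calls were also gained: Tgfbr2, lower, without BALB/c replicate 1, Id2, lower, without BALB/c replicate 3, and Igfbp5, higher, without B6 replicate 2.

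**Figure D4:**
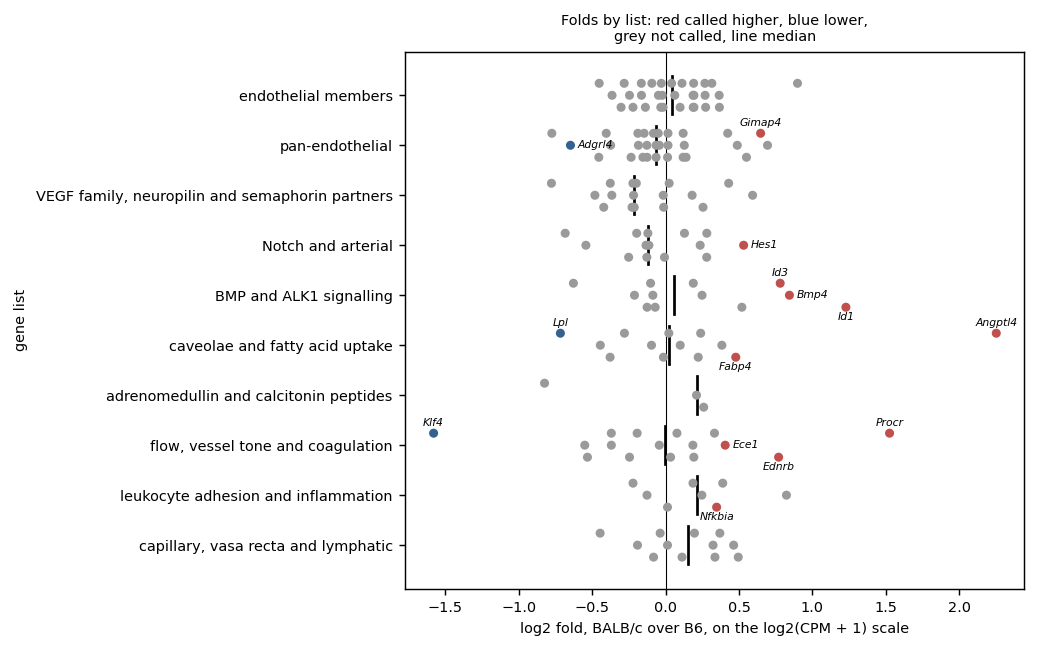
Log2 fold, BALB/c over B6, of the tested endothelial members in the top line and of the tested genes of 9 companion lists below, on the log2(CPM + 1) scale. Red points were called higher, blue points lower and grey points not called by limma; black lines are medians, and called genes appear in the companion lists but not among the members.

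Other cell types of the kidney were read beside these results. Summed over 14 mural, mesangial and fibroblast markers, the level was 569.8 to 691 CPM in B6 and 511 to 559 CPM in BALB/c. Acta2 and Col1a2 fell and Itga8 rose among them, and the sums stayed apart in 10 of 14 removals of 1 gene. The 10 macrophage and myeloid markers summed to 130.2 to 152 CPM in B6 and 201 to 202 CPM in BALB/c, and Csf1r, Cx3cr1 and Lyz2 rose. The gap rested on Csf1r: the other 9 summed to 69.3, 77.8 and 76.2 CPM in B6 and 98.4, 83.9 and 67.9 CPM in BALB/c, which overlap. C1qb lay lower in BALB/c without overlap (-0.60, adjusted p = 0.107 by limma), and Adgre1 and C1qc had -0.74 and -0.54, values chosen after they were seen. The 11 lymphocyte markers summed to at most 7.46 CPM in any library, 10 of them lay below the filter, and the other, Cd8a, fell. Without Cd8a the lymphocyte sums were 1.98, 5.44 and 2.24 CPM in B6 and 4.16, 4.01 and 3.11 CPM in BALB/c, which overlap. The proximal tubule sum over 10 markers was 18038 to 19724 CPM in B6 and 16780 to 17984 CPM in BALB/c, with Slc22a8 lower. These sums did not overlap, and they stayed apart in 7 of 10 removals of 1 gene. Loop and distal tubule sums overlapped, with Pvalb called higher and Slc12a3, Calb1 and Egf lower. Of 10 collecting duct markers 0 passed limma's test, beside 9.09% of all genes. Before adjustment 3 of these 10 were below 0.05 (30%, against 21.3% of all genes tested). Red cell and platelet markers mark blood left in the vessels. Their sums were 4562 to 5587 CPM in B6 and 2902 to 5291 CPM in BALB/c, which overlap. Hbb-bs was called lower, though BALB/c replicate 3, at 1649 CPM, lay above B6 replicate 2, at 1614 CPM. Neither the amount of blood nor how well BALB/c globin reads align to mm10 was tested. No marker in these lists was at 0 in all 6 libraries. The part of these cells in the values of Vegfa, Ets1, Nrp1 and Icam1 was not tested.

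**Figure D5:**
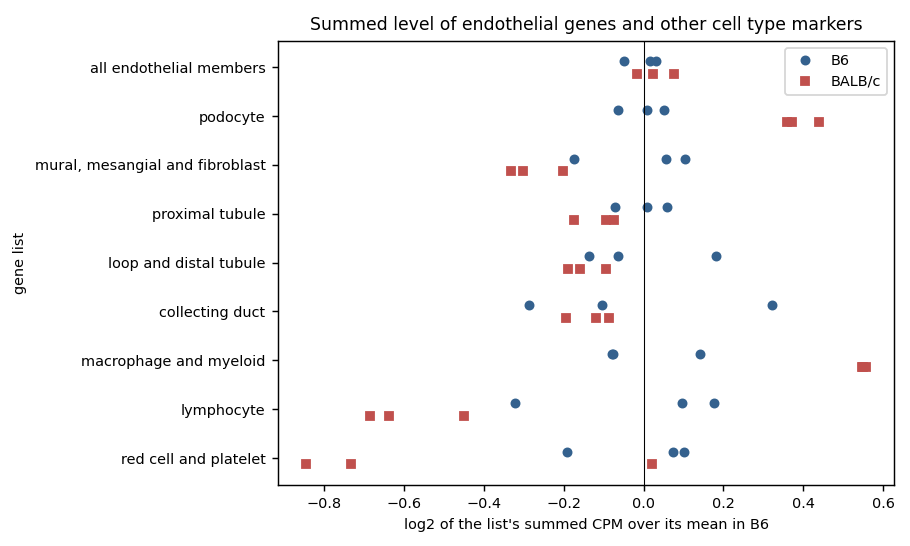
Log2 of the summed CPM of each list in each library over its mean in B6, with circles for B6 and squares for BALB/c. The endothelial members, Nrp1 and Vegfa included, lie within 0.1 of 0 in all 6 libraries. Podocyte and macrophage sums lie higher and mural, proximal tubule and lymphocyte sums lower in BALB/c. The macrophage and lymphocyte gaps close without Csf1r and Cd8a.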

How the data were processed

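Kidney RNA of 3 B6 and 3 BALB/c mice was extracted with Trizol and made into libraries with a Lexogen QuantSeq kit, per the labels' protocols. Bowtie2, bedtools and mm10 are named in the submitters' processing notes. Their versions, the annotation, and how strand and multiple alignments were treated: not given in the sources used here. Each deposited file holds 1 log2 value per symbol with 3 decimals. Undone from the log, the deposited log2 values sum to between 980188 and 1043600 per library. Divided by the smallest step, all values at 20 reads or fewer came within 0.1 of a whole number (100% in each library), so the values were taken as log2(CPM + 1) with a further scaling per library and turned back into reads for depth and limma-voom. Since mm10 is a C57BL/6 genome, BALB/c reads could align less well, and this was not tested.

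Genes with a log2 value of at least 1 in at least 3 libraries (13317) were fitted with limma 3.58.1 in R 4.3.3, strain as the sole term and a variance prior that follows the level, with Benjamini-Hochberg adjustment over all of them. The script was tested on simulated data. Libraries of 1 strain differed by more than counting error (7.93 to 17.1 times, chi-square over its degrees of freedom). Ratios were tested by exact permutation. Positions and overlaps came from GENCODE M21 on GRCm38. Alternatives covered pseudocount, filter, scaling, model, prior, replicate block and each library left out. The members and lists were chosen with earlier results of these data known. Named are all members, every called gene and the 3 others of highest mean CPM per list; Tek, Tie1, Tgfbr2, C1qb, C1qc and Adgre1 were added, and 1 called marker is not reported here.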

Additional observations from a re-analysis of the deposited data

How the results depend on the processing

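The count of called endothelial members was 0 in the fit as reported and moved to 2 with a pseudocount of 5 CPM (Gpihbp1 and Plvap), 2 when only genes averaging 5 CPM or more were tested (the same pair), 1 with total-read scaling (Gpihbp1), 2 with upper quartile scaling (Gpihbp1 and Vegfa, adjusted p = 0.0455) and 1 with a robust variance prior (Gpihbp1). It stayed at 0 with a pseudocount of 0.25 CPM, no filter beyond 1 read, limma-voom and no trend in the prior. With a library left out it ranged from 0 to 2. The companion count of 14 of 124 (9.09% of all genes called) moved to 7 of 143 with no filter beyond 1 read (4.95%) and to 3 of 124 with no trend in the prior (3.7%; Angptl4, Ednrb and Klf4), and ranged from 6 to 13 with a library left out; the cause was not tested. The sign of 11 members turned in at least 1 of 16 alternatives, all with a fold of at most 0.19 in size. Ehd3 became 0.0055 with total-read scaling, 0.010 with upper quartile scaling and 0.0061 with limma-voom, and Fli1 0.0032 with upper quartile scaling. With a library left out the folds ranged from -0.29 to 0.025 for Cdh5, -0.031 to 0.36 for Cldn5, -0.031 to 0.32 for Icam2, -0.12 to 0.39 for Robo4, -0.077 to 0.051 for Ehd3, -0.11 to 0.097 for Calcrl, -0.064 to 0.14 for Ramp2, -0.015 to 0.20 for Ramp3, -0.26 to 0.18 for Nos3, -0.076 to 0.42 for Erg and -0.23 to 0.16 for Fli1. With the replicate number as a block, 0 members and 13 companion genes were called. Same-numbered libraries of the strains did not deviate together over the genes as a whole (Pearson r 0.012, -0.057 and -0.084). Not every library correlated best with its own number. A pairing confined to few genes was not tested. With 3 mice per strain, the median SE of the log2 fold was 0.28 for the 12 members under 20 CPM and 0.14 for the 19 others. The part of counting error in these was not tested.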
